A study of Mus musculus with 8 samples.

Results

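The TNF superfamily was described in bone marrow-derived macrophages, a primary cell obtained by growing bone marrow cells into macrophages in a dish. Members were the genes whose array probes carry a name beginning with Tnfsf or Tnfrsf, together with Tnf, Lta, Ltb, Ltbr, Fas, Fasl, Cd27, Cd40, Cd40lg, Cd70, Ngfr, Eda2r and Edar. The rule found 43 genes (16 ligands and 27 receptors) of 35080 gene names or identifiers on the array, measured by 55 of 55681 probes. The macrophages came from male C57BL/6J mice. The siRNA of interest was aimed at the terminal loop found in Y RNAs, short non-coding RNAs that bind the Ro60 protein, and its group held 4 samples, and the group given a control siRNA held 4 samples. Each of 4 mice gave 1 sample to each group, so a replicate number names a mouse. The sources used here give no age of the mice and no dose or duration of the siRNA treatment, and the level of the Y RNAs was not analysed here.

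TNF superfamily ligands are mostly trimeric membrane proteins that can be shed, and they signal by clustering their receptors. Receptors with a death domain, such as Tnfrsf1a and Fas, can start apoptosis or necroptosis, whereas the others recruit TRAF proteins and activate NF-kappaB and MAP kinases. Decoy receptors bind a ligand without passing on its signal. Macrophages are known as a main source of TNF and of the B cell survival factor BAFF (Tnfsf13b), and TNF and RANKL (Tnfsf11) also steer macrophage precursors towards osteoclasts.

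The 8 1-colour arrays shared 1 slide. Per array, 48.7% to 50.7% of spots exceeded the scanner software's test for being well above background, and 0 were saturated. Levels below are log2 signals minus the 75th percentile of the same array, so 0 is the signal at that percentile, and values listed for a group run from mouse 1 to mouse 4. A signal depends on the probe, so levels of different genes cannot be ranked by it. All 8 macrophage markers, Adgre1, Csf1r, Cd68 and Itgam among them, were well above background on all 8 arrays. Some markers of other cells were also well above background on all 8 arrays. Among them were Cd79a and Cd79b of B cells, Cd3e and Lck of T cells, Prf1 of NK cells, and S100a8, S100a9 and Camp of neutrophils. The rest were Ctsk, Acp5, Ocstamp and Dcstamp of osteoclasts, Col1a1, Col1a2 and Dcn of stromal cells, and Kit of mast cells. Others of the same lists were well above background on 0 arrays. These were Ms4a1 of B cells, Cd3d and Cd8a of T cells, Ncr1, Klrb1c and Gzma of NK cells, and Ly6g and Ngp of neutrophils. Calcr of osteoclasts, Pdgfra of stromal cells, and Cpa3, Mcpt4 and Fcer1a of mast cells were also on 0 arrays. The control sample of mouse 4 had an RNA integrity number of 8, and the other 7 samples had 10. In bulk RNA, fewer cells of a type and less RNA per cell cannot be told apart.

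Of the 43 members, 28 passed the filter of 4 or more arrays well above background and were tested, 9 of 16 ligands and 19 of 27 receptors. On all 8 arrays 26 members were well above background. The other 2 tested members were Ngfr, the p75 neurotrophin receptor, on 4 arrays (2 of each group), and Tnfrsf18 (GITR), a co-stimulatory receptor of T cells, on 6 arrays (3 of each group). The 15 members not tested were the ligands Lta, Fasl, Cd40lg, Cd70, Tnfsf4, Tnfsf11 and Tnfsf18 and the receptors Cd27, Tnfrsf8, Tnfrsf11b, Tnfrsf13c, Tnfrsf19, Tnfrsf25, Edar and Eda2r. Of these, Cd27 was well above background on 1 control array, Tnfrsf19 on 1 Y RNA siRNA array, and the other 13 on 0 arrays. The 7 undetected ligands include Fasl and Cd40lg, which are best known from activated T cells. For these probes the arrays give only an upper bound on the level and no comparison was made.

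Set out as 25 known ligand and receptor pairs, 12 pairs had both partners among the tested members. Tnf and its receptors Tnfrsf1a and Tnfrsf1b, Ltb and Tnfsf14 with Ltbr, Tnfsf12 (TWEAK) with Tnfrsf12a, and Tnfsf10 (TRAIL) with Tnfrsf10b were of this kind. In 7 pairs only the receptor was tested, among them Fas without Fasl, Cd40 without Cd40lg and Tnfrsf11a (RANK) without Tnfsf11. In 4 pairs only the ligand was tested, such as Tnfsf15 without Tnfrsf25 and Tnfsf8 without Tnfrsf8, and in 2 pairs neither partner was.

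**Figure D1:**
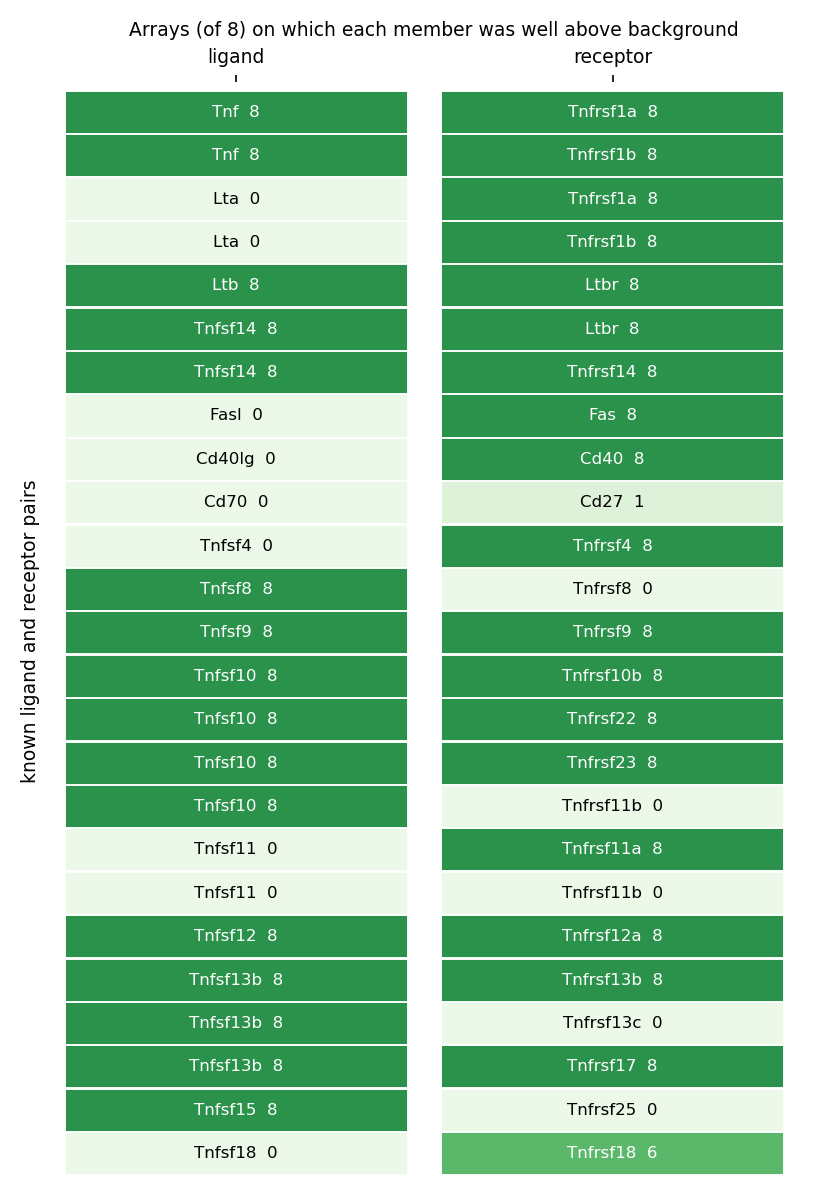
Number of the 8 arrays on which each member was well above background, for 25 known ligand (left column) and receptor (right column) pairs, with darker green for more arrays. Both partners were tested in 12 pairs and only the receptor in 7.

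The comparison of the Y RNA siRNA with the control siRNA asks which transcripts differ when these small RNAs are targeted. Of the family, Tnfsf13b was the 1 tested member whose groups did not overlap, with a higher signal in all 4 Y RNA siRNA samples than in any control sample and a fold of 1.33, but it did not pass the test across all genes. Groups did not overlap for 2.43% of all genes tested, against 1 of 28 members (3.57%), so this count is close to that of all genes. The ligands Tnfsf8, Tnfsf14 and Tnfsf9 and the receptors Tnfrsf21 and Tnfrsf26 gave higher signals in every mouse under the Y RNA siRNA, with mean differences of 0.23 to 0.74 on the log2 scale and overlapping groups. Tnfrsf1b, Tnfrsf1a and Fas were also higher in every mouse, with smaller mean differences. With Tnfsf13b, 9 of 28 members were higher in 4 of 4 mice, against 10.4% of all genes tested. Counting either direction, 12 of 28 members (42.9%) and 19.3% of all genes tested had the same direction in 4 of 4 mice. Tnf, Fas, Tnfrsf1a and Ltbr had mean differences under 0.1 on the log2 scale.

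By limma's moderated test with Benjamini-Hochberg adjustment over all genes, 0 of 28 members passed an adjusted p of 0.05, against 0 of 19286 genes (0.0%). At an unadjusted p under 0.05 there were 4 of 28 members (14.3%), Tnfsf13b, Tnfsf8, Tnfrsf21 and Tnfrsf26, against 3.4% of all genes tested. The 4 became 2 without the Y RNA siRNA sample of mouse 3 and 2 without mouse 4. A fixed block for the mouse gave 0 members and 0 genes (0.0%) past the adjusted threshold. With it, 10 of 28 members (35.7%) had an unadjusted p under 0.05 against 9.27% of all genes. These 10 were the 4 named above, Tnfsf14, Tnfsf9 and Tnfrsf1b, and Ltb, Tnfrsf17 and Cd40. Of the 10, Ltb, Tnfrsf17 and Cd40 had a lower mean with the Y RNA siRNA and the others a higher one. A random block gave 0 members and 11 genes (0.057%) past the adjusted threshold. With the random block, 7 of 28 members (25%) had an unadjusted p under 0.05 against 9.54% of all genes. Unless stated, SEs and intervals of single genes below are from the fit without a block, so variation among mice is part of their error.

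Tnfsf13b encodes BAFF, which keeps B cells alive through Tnfrsf13c and also binds Tnfrsf13b and Tnfrsf17. Its level was -1.12, -1.34, -1.26 and -1.26 with the Y RNA siRNA, against -1.66, -1.55, -1.71 and -1.69 with the control siRNA. The lowest Y RNA siRNA value lay above the highest control value. The log2 fold change was 0.41 (SE 0.065, 95% interval 0.26 to 0.56), a 1.33-fold higher signal. Its adjusted p was 0.525, and over the alternatives it ranged between 0.0614 and 1.00, the lowest with the mouse as a random block. Normexp background correction gave a log2 fold change of 0.31 and the authors' deposited table one of 0.28, and leaving out an array or a mouse gave 0.36 to 0.47.

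The Tnfsf13b probe lies at chr8:10035561-10035620 on the plus strand of build mm9. The last 30 of its 60 bases, as the scanner files write them, are printed here with those of the Tnfrsf21 probe, since these are the ligand and the receptor with the smallest unadjusted p and their values rest on these oligos.
Tnfsf13b probe: acagacagccacaaccgaagtgtgccatgt
Tnfrsf21 probe: taagtctttcaaccttcacacctactcttt

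RefSeq promoters of build GRCm38.p6, which run from 250 bases before to 50 bases after a start site, were available for 33 of the 43 members. They were searched on both strands for TTTC, any 2 bases and TTTC again, a pattern found in interferon-stimulated response elements, which was present in 4 of 33 genes (12.1%) and in 3.99% of all genes in the table. The 4 were Tnfsf13b, Tnfrsf1b, Tnfrsf14 and Tnfrsf17, of which Tnfsf13b and Tnfrsf1b had a higher and Tnfrsf14 and Tnfrsf17 a lower mean with the Y RNA siRNA. Of the Tnfsf13b promoters, the window at chr8:10006383-10006682 on the plus strand holds this TTTC pattern on the other strand, from 16 to 7 bases before its start site (-16 to -7). It is printed at the end of the paragraph with the match in capitals, because this is the member whose groups did not overlap. The kappaB consensus was present in 4 of 33 genes (12.1%), Ltb, Tnfrsf9, Tnfrsf8 and Tnfrsf25, and in 9.55% of all genes, and not in the windows of Tnfsf13b. A match is a description of these letters and not a site.
Tnfsf13b promoter: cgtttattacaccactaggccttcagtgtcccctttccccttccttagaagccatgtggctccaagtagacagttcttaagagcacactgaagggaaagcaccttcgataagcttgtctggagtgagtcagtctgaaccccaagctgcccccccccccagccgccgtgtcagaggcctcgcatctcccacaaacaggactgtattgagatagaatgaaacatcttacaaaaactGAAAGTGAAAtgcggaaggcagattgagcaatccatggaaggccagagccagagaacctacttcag

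Among the other ligands, Tnfsf8, the ligand of CD30, had levels of -2.55, -2.93, -3.34 and -2.35 with the Y RNA siRNA, against -3.20, -3.53, -3.57 and -3.84 with the control siRNA. Each mouse was higher with the Y RNA siRNA, but mouse 3 with the Y RNA siRNA lay below mouse 1 with the control siRNA, so the groups overlapped. The log2 fold change was 0.74 (SE 0.22, 95% interval 0.22 to 1.26, limma adjusted p 1.00). The control value of mouse 4, the sample with the integrity number of 8, was the lowest of the 8, and the log2 fold change was 0.64 without that sample and 0.49 without mouse 4. For this dim probe, normexp background correction gave 0.35, and 0.38 came from the authors' deposited table.

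Tnfsf14 (LIGHT), which binds Ltbr and Tnfrsf14, had levels of -0.31, -0.95, -0.72 and -0.55 in Y RNA siRNA samples, against -0.75, -1.06, -1.21 and -0.90 in control samples. Tnfsf9 (4-1BB ligand) had levels of 0.57, 0.47, 0.96 and 0.50 in Y RNA siRNA samples, against 0.15, 0.39, 0.67 and -0.04 in control samples. Both ligands were higher with the Y RNA siRNA in 4 of 4 mice while their groups overlapped. Their log2 fold changes were 0.34 (95% interval -0.0048 to 0.69) and 0.33 (95% interval -0.06 to 0.73) without a mouse block. Their SEs were 0.15 and 0.17 in that fit, and 0.074 and 0.087 with a fixed block for the mouse. With the fixed block their unadjusted p by limma was 0.0062 and 0.013, and their adjusted p 0.367 and 0.414. The control value of mouse 4 was also the lowest for Tnfsf9, whose log2 fold change was 0.22 without that sample and also 0.22 without the Y RNA siRNA sample of mouse 3. Both genes are neighbours, with their probes and that of Cd70 at chr17:57247062-57329251 (mm9), and Cd70, the ligand of CD27, was well above background on 0 arrays.

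Tnf, the founding cytokine of the family, had levels of 0.68, 0.84, 1.46 and 0.80 with the Y RNA siRNA, against 0.59, 1.09, 1.46 and 0.87 with the control siRNA. Mouse 3 was high and mouse 1 low in both groups, and the groups overlapped throughout. The log2 fold change was -0.06 (95% interval -0.58 to 0.46) without a mouse block. Its SE was 0.22 in that fit and 0.066 with a fixed block for the mouse. The Tnf probe is printed on 10 spots, whose log2 signals had an SD of 0.040 to 0.117 within an array.

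Tnfsf10 (TRAIL), which triggers apoptosis through Tnfrsf10b, had levels of -2.76, -3.03, -3.08 and -2.92 in Y RNA siRNA samples, against -2.73, -3.41, -3.55 and -2.85 in control samples. Mouse 2 was higher by 0.38 and mouse 3 higher by 0.47 with the Y RNA siRNA, and mouse 1 and mouse 4 were slightly lower. The log2 fold change was 0.19 (95% interval -0.26 to 0.63), and it was 0.046 without the control sample of mouse 3 and 0.32 without that of mouse 1. Ltb, which forms lymphotoxin heterotrimers with Lta, had a log2 fold change of -0.18 and was lower with the Y RNA siRNA in 4 of 4 mice. Tnfsf12 (TWEAK) had a log2 fold change of 0.04, and Tnfsf15 (TL1A) one of 0.13. Over the 9 ligands tested, 7 had a higher and 2 a lower mean with the Y RNA siRNA, and 52.3% of all genes had a higher one. The median log2 fold change of the 9 was 0.19, the value of Tnfsf10 itself, against 0.0046 over all genes.

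**Figure D2:**
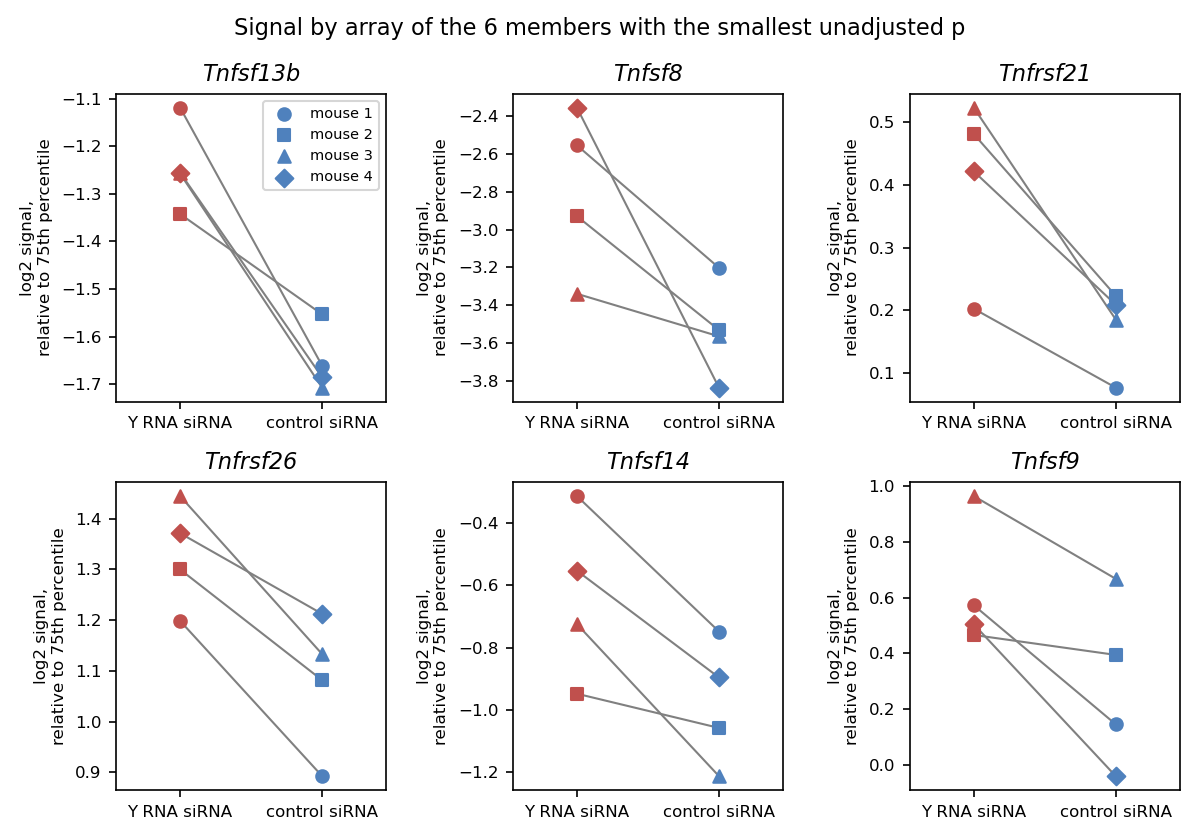
Level of the 6 members with the smallest unadjusted p (y axis, log2 signal minus that array's 75th percentile) in Y RNA siRNA samples (red, left) and control siRNA samples (blue, right), with a line joining the 2 samples of a mouse and a marker shape for each mouse. Tnfsf13b is the panel in which the groups do not overlap, and in the other 5 each mouse is higher with the Y RNA siRNA while the groups overlap.

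Of the receptors with a death domain, Tnfrsf21 (DR6) had levels of 0.20, 0.48, 0.52 and 0.42 with the Y RNA siRNA, against 0.08, 0.22, 0.18 and 0.21 with the control siRNA. Every mouse had its higher value with the Y RNA siRNA, and mouse 1, the lowest in both groups, lay with the Y RNA siRNA below the controls of mice 2 and 4. The log2 fold change was 0.23 (SE 0.080, 95% interval 0.05 to 0.42, limma adjusted p 1.00).

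Tnfrsf1a, the ubiquitous TNF receptor, had levels of 4.63, 4.54, 4.52 and 4.59 in Y RNA siRNA samples, against 4.56, 4.52, 4.49 and 4.55 in control samples. The spread was small in both groups, which overlapped, and the log2 fold change was 0.04 (95% interval -0.07 to 0.16). Fas, the receptor of Fas ligand, had levels of 2.36, 1.98, 1.65 and 2.06 in Y RNA siRNA samples, against 2.31, 1.75, 1.58 and 2.04 in control samples. The differences between mice exceeded those between siRNAs, and the log2 fold change was 0.09 (95% interval -0.35 to 0.54). Tnfrsf10b, the mouse TRAIL receptor, had a log2 fold change of -0.03, and Ngfr one of 0.09 with a 95% interval of -0.62 to 0.80.

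Of the receptors that bind TRAF proteins, Cd40, which activates macrophages on contact with T cells, had levels of -0.58, -0.22, -0.31 and -0.38 with the Y RNA siRNA, against -0.51, -0.01, -0.21 and -0.24 with the control siRNA. It was lower with the Y RNA siRNA in 4 of 4 mice, the groups overlapped, and the log2 fold change was -0.13 (95% interval -0.41 to 0.14). Tnfrsf1b, the TNF receptor of haematopoietic cells, had levels of 4.22, 4.21, 4.04 and 4.30 in Y RNA siRNA samples, against 4.10, 3.93, 3.82 and 4.28 in control samples. It was higher with the Y RNA siRNA in 4 of 4 mice with overlapping groups, and the log2 fold change was 0.16 (95% interval -0.09 to 0.41).

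Ltbr, the lymphotoxin beta receptor, had levels of 3.11, 2.98, 3.09 and 3.13 with the Y RNA siRNA, against 3.08, 3.05, 3.08 and 3.10 with the control siRNA. Tnfrsf11a (RANK), which drives osteoclast formation, had levels of 3.40, 3.47, 3.48 and 3.52 with the Y RNA siRNA, against 3.46, 3.37, 3.58 and 3.34 with the control siRNA. Both had overlapping groups and narrow intervals, with log2 fold changes of 0.0019 (95% interval -0.12 to 0.12) and 0.03 (95% interval -0.12 to 0.18). The log2 fold changes of Tnfrsf12a (the TWEAK receptor Fn14), Tnfrsf9 (4-1BB) and Tnfrsf4 (OX40) were 0.04, 0.04 and -0.03. Tnfrsf14 (HVEM), the receptor of Tnfsf14, had one of -0.09. The BAFF receptors Tnfrsf13b (TACI) and Tnfrsf17 (BCMA) had -0.02 and -0.35, and Tnfrsf18 had -0.21 with the widest interval of the tested members, -1.34 to 0.92.

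Tnfrsf26 lies beside the decoy TRAIL receptors Tnfrsf22 and Tnfrsf23 at chr7:150793990-150865910 (mm9). Its levels were 1.20, 1.30, 1.44 and 1.37 in Y RNA siRNA samples, against 0.89, 1.08, 1.13 and 1.21 in control samples. All 4 mice were higher with the Y RNA siRNA, the groups overlapped, and the log2 fold change was 0.25 (SE 0.085, 95% interval 0.05 to 0.45, limma adjusted p 1.00). Of its neighbours, Tnfrsf22 had a log2 fold change of -0.04 and Tnfrsf23 one of 0.04.

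Across the 28 tested members, 18 (64.3%) had a higher mean with the Y RNA siRNA, against 52.3% of all genes tested, and the median log2 fold change was 0.04 against 0.0046 over all genes. The direction was the same in 4 of 4 mice for 12 members (42.9%), against 19.3% of all genes. Of these, 9 were higher with the Y RNA siRNA (10.4% of all genes were), namely Tnfsf13b, Tnfsf8, Tnfsf14, Tnfsf9, Tnfrsf21, Tnfrsf26, Tnfrsf1b, Tnfrsf1a and Fas. The second kept probe of Tnfrsf1a did not have the same direction in all mice, with a mean difference of -0.01. The other 3 members with 1 direction were lower (8.85% of all genes were), namely Ltb, Tnfrsf17 and Cd40. In the fit without a mouse block, the 95% interval lay within 1.5-fold either way for 19 members (67.9%), against 84.7% of all genes. It lay within 2-fold for 26 members (92.9%), against 95.6%. The 2 members whose intervals reached beyond 2-fold were Tnfsf8 and Tnfrsf18.

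**Figure D3:**
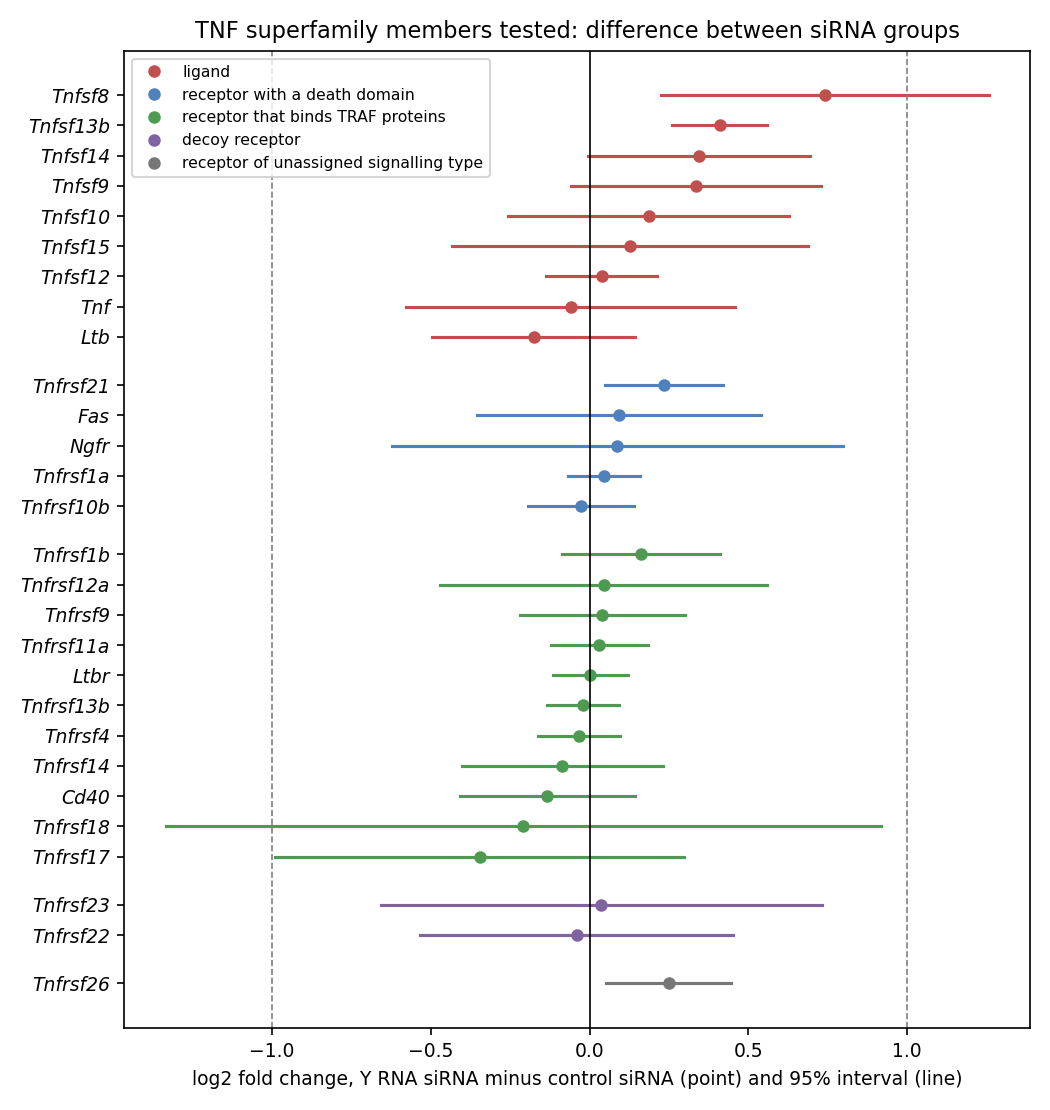
Log2 fold change (x axis, Y RNA siRNA minus control siRNA) of the 28 tested members, grouped and coloured by role. Lines are 95% intervals from the fit without a mouse block, and dashed lines mark a 2-fold change. The intervals of Tnfsf13b, Tnfsf8, Tnfrsf21 and Tnfrsf26 lie above 0, and none of the 28 passed the adjusted threshold.

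On the slide, Y RNA siRNA samples and control samples occupied different columns, so column and siRNA cannot be told apart. The summed linear signal of 6 osteoclast markers was 11.5, 39.1, 60.3 and 47.8 times the 75th percentile in Y RNA siRNA samples of mice 1 to 4, against 13.9, 51.6, 74.0 and 61.4 times in control samples. It was lower with the Y RNA siRNA in every mouse, 4 of the 6 markers (Ctsk, Acp5, Ocstamp and Dcstamp) were well above background on all 8 arrays and Calcr on 0. The sum of 5 B cell markers was 1.84 to 2.30 in Y RNA siRNA samples and 0.815 to 2.21 in control samples, with 2 of 5 (Cd79a and Cd79b) on all 8 arrays and Ms4a1 on 0. Within mice it was higher with the Y RNA siRNA in 4 of 4, by very little in mouse 3, and the lowest control value was that of mouse 4. The sum was mostly the signal of Cd79b, with a log2 fold change of 0.58, whereas the dimmer Cd79a had -0.21. The T cell sum was 0.862 to 1.03 in Y RNA siRNA samples and 0.930 to 1.08 in control samples, with 2 of 6 markers (Cd3e and Lck) on all 8 arrays, and it was lower with the Y RNA siRNA in 4 of 4 mice. Of these 2, the brighter Cd3e had a log2 fold change of -0.15, whereas Lck had 0.13. The NK cell sum was 0.321 to 0.382 in Y RNA siRNA samples and 0.303 to 0.367 in control samples, with 1 of 4 markers (Prf1) on all 8 arrays. The dendritic cell sum, with 0 of 4 markers on all 8 arrays, was 0.115 to 0.255 in Y RNA siRNA samples and 0.0810 to 0.235 in control samples. The mast cell sum, with 1 of 4 (Kit), was 0.171 to 0.603 in Y RNA siRNA samples and 0.169 to 0.518 in control samples, and it was higher with the Y RNA siRNA in 4 of 4 mice. Kit had a log2 fold change of 0.13, and Cpa3, Mcpt4 and Fcer1a were on 0 arrays. The part of these cells in the differences above was not tested.

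Genes that carry the signal of these receptors were described beside them, from a list of 45 adaptors, kinases, NF-kappaB subunits, ubiquitin editors and sheddases, of which 43 were tested and Traf4 and Rel were not. By limma, 0 of 43 passed the adjusted threshold, and 2 had an unadjusted p under 0.05, Rhbdf1 and Tnfaip3, against 3.4% of all genes. Means were higher for 21 and lower for 22, and the median log2 fold change was -0.0029 against 0.0046 over all genes. Rhbdf1 encodes an inactive rhomboid. Its levels were -0.40, -0.16, -0.37 and -0.25 with the Y RNA siRNA, against 0.21, -0.01, 0.04 and 0.12 with the control siRNA. Its groups did not overlap, as in 1 of 43 genes of the list and 2.43% of all genes, and the log2 fold change was -0.38 (SE 0.077, limma adjusted p 0.740, between 0.113 and 1.00 over the alternatives).

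Tnfaip3 (A20), an inhibitor of NF-kappaB signalling, had levels of 2.18, 2.07, 1.95 and 2.04 in Y RNA siRNA samples, against 2.40, 2.17, 2.19 and 2.28 in control samples. It was lower with the Y RNA siRNA in 4 of 4 mice with overlapping groups, and the log2 fold change was -0.20 (SE 0.075, limma adjusted p 1.00). Next in order of p were the adaptor Traf1 with a log2 fold change of 0.20, the kinase partner Tab1 with -0.05, the initiator caspase Casp8 with -0.05 and the IkappaB kinase Chuk with 0.06.

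The same 8 arrays were also compared among the 4 mice, with the siRNA kept in the model. Here 6 of 28 members (21.4%) passed an adjusted p of 0.05 in limma's moderated F-test, against 906 of 19286 genes (4.7%). These were the decoy receptor Tnfrsf23, the ligands Tnfsf15 and Tnf, and the receptors Fas, Tnfrsf17 and Tnfrsf12a. Of the 8 other settings that kept every array, Tnfrsf23 passed in 8, Tnfsf15, Tnf and Tnfrsf17 in 7, and Fas and Tnfrsf12a in 6. Tnfrsf23, Tnf and Tnfrsf12a were lowest in mouse 1 and highest in mouse 3, and Tnfsf15, Fas and Tnfrsf17 were highest in mouse 1 and lowest in mouse 3. On the slide, mice 1 and 2 shared a row and mice 3 and 4 the other. Row and mouse cannot be told apart between these pairs. These calls rest on few arrays: without mouse 1, 0 members and 2 genes in all passed, and without mouse 3, 0 members and 164 genes passed. Without mouse 2, 5 members passed, and without mouse 4, 1 did. Leaving out only 1 array of mouse 1 or mouse 3 gave 0 members, of mouse 2 gave 4, and of mouse 4 gave 1.

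Tnfrsf23 is a decoy receptor for TRAIL. Its levels were 1.47, 1.71, 2.50 and 2.20 with the Y RNA siRNA, against 1.37, 1.67, 2.47 and 2.23 with the control siRNA. The 2 samples of each mouse lay close together, and the mouse means were 1.42, 1.69, 2.49 and 2.21, a range of 1.07 on the log2 scale (adjusted p 0.00672 by limma). It passed in all 8 other settings that kept every array, with adjusted p of up to 0.0378 there, and had 0.172 without mouse 1 and 0.0677 without mouse 3.

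Tnfsf15 (TL1A), a ligand of the receptor Tnfrsf25, had levels of 1.04, 0.66, 0.17 and 0.63 in Y RNA siRNA samples, against 1.05, 0.39, 0.03 and 0.52 in control samples. Mouse 1 was the highest and mouse 3 the lowest with either siRNA. The mouse means were 1.04, 0.52, 0.10 and 0.58 (adjusted p 0.0272 by limma), and the mouse means of Fas, from the levels given above, were 2.33, 1.86, 1.61 and 2.05 (adjusted p 0.0336). Those of Tnf were 0.63, 0.96, 1.46 and 0.83 (adjusted p 0.0434).

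Tnfrsf17 (BCMA), a BAFF and APRIL receptor of plasma cells, had levels of -2.30, -3.20, -3.51 and -3.24 in Y RNA siRNA samples, against -2.19, -2.93, -2.94 and -2.81 in control samples. Mouse 1 stood above the other mice with either siRNA, and the mouse means were -2.24, -3.06, -3.22 and -3.03 (adjusted p 0.0473 by limma). Tnfrsf12a (Fn14), the receptor of TWEAK, had levels of 0.07, 0.56, 0.84 and 0.54 in Y RNA siRNA samples, against -0.12, 0.70, 0.70 and 0.56 in control samples. Here mouse 1 stood below the others, and the mouse means were -0.03, 0.63, 0.77 and 0.55 (adjusted p 0.0484).

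**Figure D4:**
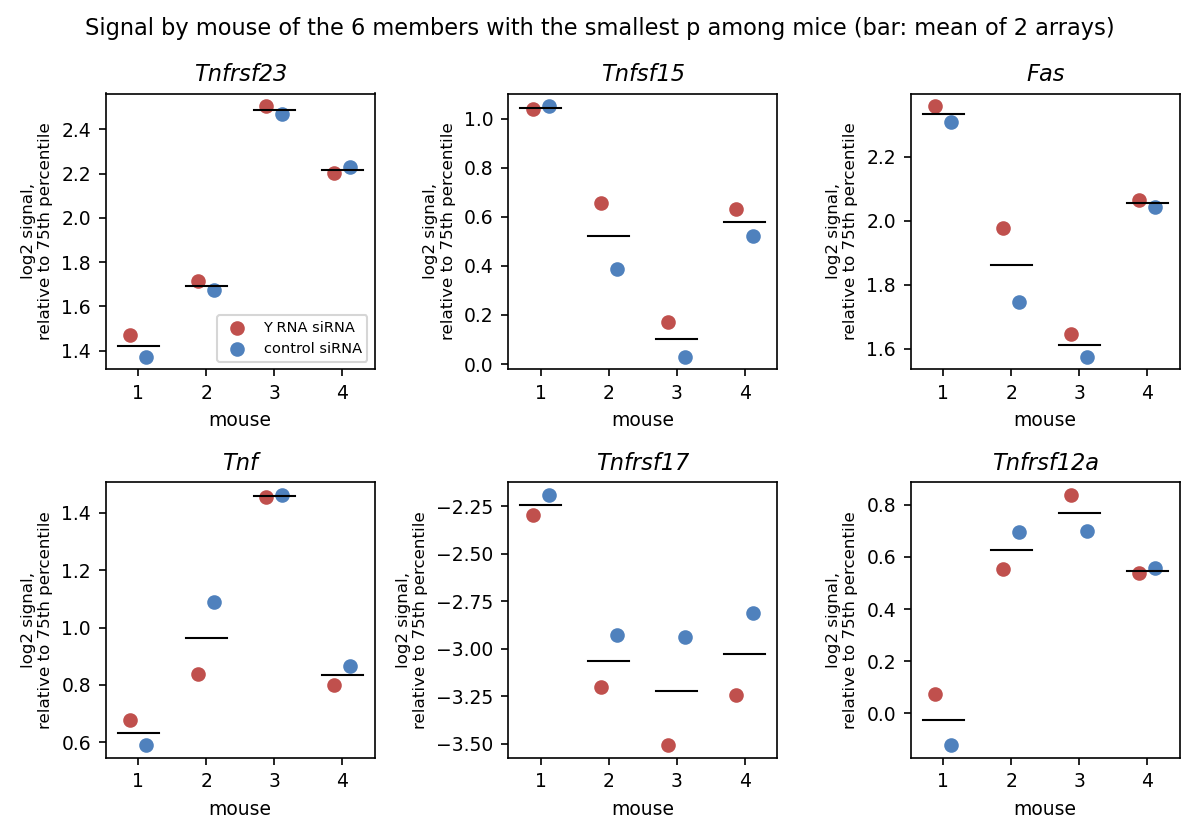
Level of the 6 members with the smallest p among mice (y axis, log2 signal minus that array's 75th percentile) in the 4 mice (x axis), with the Y RNA siRNA sample in red, the control siRNA sample in blue and the mean of both as a bar. Tnfrsf23, Tnf and Tnfrsf12a are lowest in mouse 1, and Tnfsf15, Fas and Tnfrsf17 are highest there.

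Summed markers of other cells were set beside these values. The summed osteoclast markers averaged 12.7, 45.3, 67.1 and 54.6 times the 75th percentile in mice 1 to 4, and the summed neutrophil markers 0.781, 1.64, 1.93 and 1.34 times, with 3 of 6 neutrophil markers on all 8 arrays and Ly6g and Ngp on 0. The sums of the fibroblast or stromal markers were 0.959, 1.92, 2.35 and 2.92 times, with 3 of 6 on all 8 arrays and Pdgfra on 0. The mast cell sum was 0.170, 0.303, 0.561 and 0.366 times, with Cpa3, Mcpt4 and Fcer1a on 0 arrays, and the dendritic cell sum was 0.0980, 0.134, 0.245 and 0.156 times, with Xcr1 on 0. The T cell sum was 0.896, 0.947, 1.05 and 0.945 times, the B cell sum 2.11, 1.71, 2.22 and 1.35 times and the NK cell sum 0.334, 0.343, 0.323 and 0.344 times. The 8 macrophage markers summed to 1626, 1449, 1379 and 1484 times. Mouse 1 was lowest for the osteoclast, neutrophil, stromal, mast cell, dendritic cell and T cell sums and highest for the macrophage sum, and mouse 3 was highest for all of these 6 but the stromal sum. Both arrays of mouse 1 also had the lowest 75th percentile of the log2 signal, 9.04, against up to 9.34 on the other arrays. The part of these values in the differences among mice was not tested.

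The range of the 4 mouse means was larger than the siRNA difference for 24 of 28 members (94.0% of all genes tested), although a range of 4 means of 2 arrays and a difference of 2 means of 4 arrays are not on an equal footing. The 4 exceptions were Tnfsf13b, Tnfsf8, Tnfrsf21 and Tnfrsf26. The median range was 0.44 on the log2 scale for the members and 0.25 for all genes tested. Mouse 1 had the highest mean for 11 members and the lowest for 8, and mouse 3 the highest for 9 and the lowest for 10. Of the signalling genes, 2 of 43 passed among the mice (4.7% of all genes did), Traf1 and Nfkb1, with mouse means of 2.09, 1.53, 1.58 and 1.81 for Traf1 (adjusted p 0.0473) and 1.41, 0.98, 1.13 and 1.17 for Nfkb1 (adjusted p 0.0455).

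**Figure D5:**
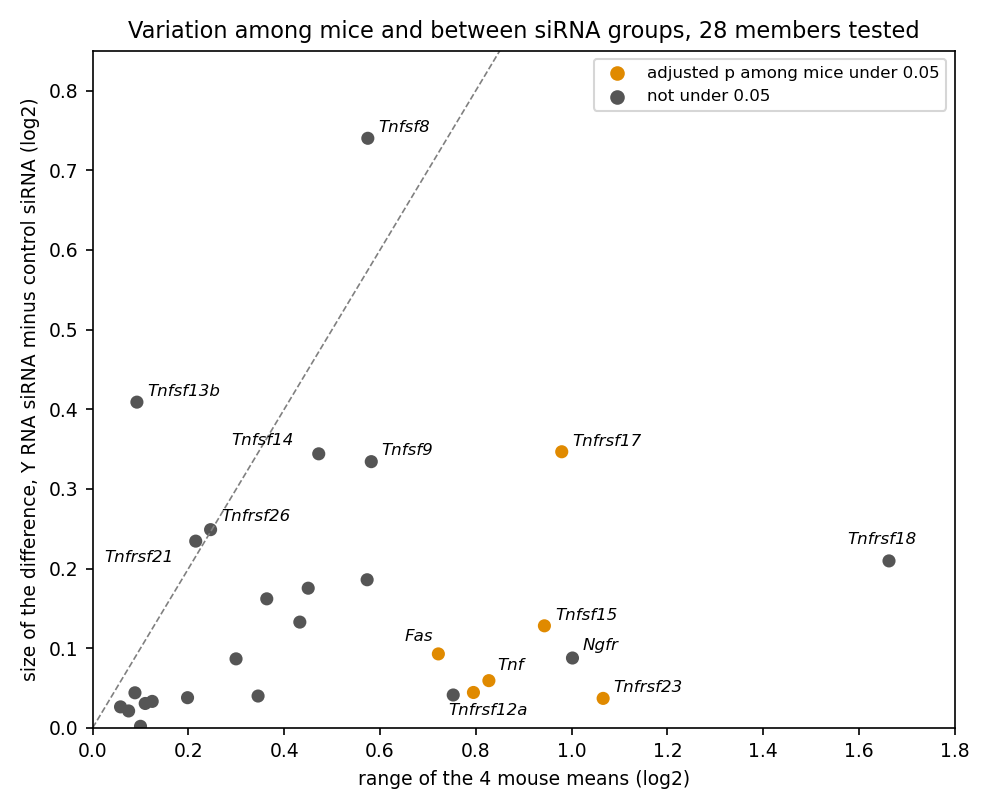
Range of the 4 mouse means (x axis, log2) and size of the siRNA difference (y axis, log2) for the 28 tested members, with members past the adjusted threshold among mice in orange and a dashed line where both are equal. Tnfsf13b, Tnfsf8, Tnfrsf21 and Tnfrsf26 lie above the line, and the other 24 below it.

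Probes of 1 gene did not always give the same picture, and some probes hold letters that recur on the array. Tnfrsf9, an inducible co-stimulatory receptor, has 2 probes on chromosome 4 (mm9), 1 well above background on all 8 arrays at 150319582 to 150319641 and 1 on 0 arrays at 150319101 to 150319160. The ends of both are shown, chosen after their values were seen, because the bright probe ends in a run of 22 alternating G and T, in capitals. On this array 52 probes hold a GT or TG run of 20 or more bases, and all 52 passed the filter of 4 or more arrays, against 48.2% of all probes. The part of the run in the Tnfrsf9 signal was not tested.
Tnfrsf9 probe on 8 arrays: taaaatcaGTGTGTGTGTGTGTGTGTGTGT
Tnfrsf9 probe on 0 arrays: taacatatttgtctttaccttttttaaatc

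The Tnfsf15 probe, at chr4:63388134-63388193 on the minus strand (mm9), is shown for the same reason and was also chosen after its letters were seen. The letters in capitals, with any base allowed at their position 5, occur in 11 probes of the array, of which 10 (90.9%) passed the filter of 4 or more arrays. The part of these letters in the Tnfsf15 signal was not tested either.
Tnfsf15 probe: tgcctatataacaaGACCTTGTCTCAAAtg

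Tnfrsf13b (TACI) has 3 probes, of which 2 were well above background on all 8 arrays and 1 on 0. These 2 had unlike mean levels, 3.41 and -1.14 in Y RNA siRNA samples and 3.43 and -1.07 in control samples. The brighter, used above, was not among the probes matched to a RefSeq symbol. The siRNA differences of the 2 were -0.02 and -0.07. Tnfrsf23 has 2 probes, on 8 and on 5 arrays. Its dimmer probe gave a difference of 0.27 between siRNA groups against 0.04 for the brighter. For Tnfrsf1a, Tnfrsf14, Tnfrsf22 and Tnfsf12, each with 2 kept probes, the differences of the second probe were -0.01, -0.01, -0.13 and -0.06.

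By position on mm9, 20 of the 43 members lie in 8 groups whose probes are within 200 kb of each other, and 14 of these 20 were tested. Beside the Tnfsf9 and Tnfrsf26 groups, Ltb, Tnf and Lta lie at chr17:35333097-35340334, with Lta on 0 arrays and lower means of Ltb and Tnf with the Y RNA siRNA. Tnfsf15 and Tnfsf8 lie at chr4:63388134-63493930, Tnfsf4 and Tnfsf18 at chr1:163348095-163435411 with 0 tested, and Cd27, Ltbr and Tnfrsf1a at chr6:125183076-125312435.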

How the data were processed

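RNA of 8 macrophage cultures, 4 with the Y RNA siRNA and 4 with the control siRNA, was measured on 1-colour Agilent arrays. Per the file headers, the scanner files were made by Feature Extraction 10.7.3.1 with protocol GE1_107_Sep09, and the intensity of each spot was background-subtracted and spatially detrended but not scaled between arrays. A value table deposited by the authors is on the log2 scale, with no stated normalization, and served only as an alternative. Its columns had medians from 6.26 to 6.27 and ran in the direction of the scanner signals.

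Control spots (3671 of 62976 per array) and outlier-flagged spots were left out. Levels are log2 processed signals minus the array's 75th percentile, averaged over the spots of a probe. Probes had to be well above background on 4 or more of the 8 arrays, and the brightest kept probe stood for a gene. Accessions of 26762 probes matched RefSeq symbols (GRCm38.p6, used for names and promoters only), and members were matched by the name in the files. The siRNA comparison used limma 3.58.1 (R 4.3.3; lmFit, then eBayes; two-sided) without a block, and mice by the moderated F-test in a model with siRNA and mouse, each with Benjamini-Hochberg adjustment over 19286 genes. The fits were tested on simulated data. The numbers pair the samples, since the series states that both conditions were run on 4 mice, and deviations of same-numbered samples correlated at 0.62, 0.16, 0.58 and 0.29 across genes. The control sample of mouse 2 correlated best with the Y RNA siRNA sample of mouse 3, and every other sample with the sample of its own number. The number of arrays limits the precision. The alternatives were normexp correction, quantile and median scaling, other filters, the mean of probes, the deposited table, array weights, fixed and random mouse blocks, and leaving out each array or mouse.

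Members, gene lists and the genes named were chosen with earlier results of these data known. Values of all 8 arrays are given for 9 members chosen for their known roles in macrophages, for the 6 members with the smallest p in each comparison and for the 2 signalling genes with an unadjusted p under 0.05. Every other tested member and the 6 signalling genes with the smallest p are given by their log2 fold change. Protein sequences were not used here.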

Additional observations from a re-analysis of the deposited data

Results flagged for a closer look

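In 56 groups of 4 samples (28 tested members in each siRNA group), 3 had a highest or lowest sample set far apart from the others, which chance alone gives for about 1 in 20 groups. Tnfrsf18 had a level of -5.25 in the Y RNA siRNA sample of mouse 2, below the other 3 samples of its group. Tnfrsf17 had -2.19 in the control siRNA sample of mouse 1, above the other 3, and the Y RNA siRNA sample of the same mouse was also the highest of its group. Ngfr had -4.90 in the control siRNA sample of mouse 2. Tnfrsf18 and Ngfr were well above background on 6 and 4 of the 8 arrays.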

How the results depend on the processing

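In the comparison of Y RNA siRNA with control siRNA, 0 family members and 0 signalling genes passed the adjusted threshold under any alternative, and 0 genes of the array did except for 11 with the mouse as a random block. The replicate block as a fixed term gave 0 genes, and neither block changed another call. Leaving out an array or a mouse gave 2 to 5 members, and 465 to 920 genes of the array, with an unadjusted p under 0.05. Of the 28 log2 fold changes, those of Tnfsf13b, Tnfsf8, Tnfrsf21, Tnfrsf26, Tnfsf14, Tnfsf9, Tnfrsf1b, Ltb, Tnfrsf17, Cd40, Tnfsf10, Tnfrsf1a and Tnfrsf4 kept their sign under every alternative. Their size was less stable when an array or a mouse was left out, with ranges of 0.046 to 0.32 for Tnfsf10, 0.49 to 0.92 for Tnfsf8, 0.22 to 0.46 for Tnfsf9, 0.091 to 0.24 for Tnfrsf1b, -0.26 to -0.067 for Ltb, -0.60 to -0.17 for Tnfrsf17, -0.22 to -0.054 for Cd40, 0.024 to 0.060 for Tnfrsf1a and -0.065 to -0.0078 for Tnfrsf4. Tnfsf13b, Tnfrsf21, Tnfrsf26 and Tnfsf14 moved by less than 1.5 times there. Some sizes also moved in the alternatives that kept every array. These gave 0.35 to 0.80 for Tnfsf8, 0.18 to 0.36 for Tnfsf9, 0.072 to 0.33 for Tnfsf10 and 0.28 to 0.44 for Tnfsf13b. Under normexp correction the sign turned for Ltbr (-0.0051), Tnfrsf10b (0.018) and Tnfrsf22 (0.010), under quantile scaling for Ltbr (-0.011), and under median scaling for Tnfrsf10b (0.0032) and Tnfrsf13b (0.0083). The authors' deposited table turned Ltbr (-0.016) and Tnfrsf10b (0.046), the mean of probes turned Tnfsf12 (-0.0096), and array weights turned Ltbr (-0.0074), Ngfr (-0.037) and Tnfrsf12a (-0.062). Leaving out an array or a mouse turned the sign of 14 small differences, whose ranges were Fas -0.022 to 0.22, Ltbr -0.014 to 0.034, Ngfr -0.15 to 0.32, Tnf -0.23 to 0.095, Tnfrsf10b -0.10 to 0.048, Tnfrsf11a -0.020 to 0.079, Tnfrsf12a -0.15 to 0.19. The other ranges were Tnfrsf14 -0.20 to 0.075, Tnfrsf18 -0.49 to 0.19, Tnfrsf22 -0.19 to 0.10, Tnfrsf23 -0.15 to 0.21, Tnfrsf9 -0.036 to 0.11, Tnfsf12 -0.0025 to 0.074 and Tnfsf15 -0.028 to 0.31. Among the mice, 906 genes and 6 members passed, against 3314 genes with normexp correction, 173 genes and 1 member without a filter on dim probes, 1861 genes with the authors' deposited table and 1878 genes with array weights. Leaving out an array or a mouse gave 2 to 1223 genes and 0 to 5 members, with fewer samples in each fit, and the cause of the differences between settings was not tested. Median scaling moved the median log2 fold change of all genes to 0.034 from 0.0046. Dim probes such as Tnfsf8, Tnfrsf17, Tnfrsf18 and Ngfr limit what signal over background can show.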

Other observations

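The repeated spots of 4 members give the spread within an array. The 10 spots of Tnfrsf1a, a bright probe, had an SD of 0.050 to 0.104 on the log2 scale on the 8 arrays, and those of Ngfr, a dim probe, had one of 0.25 to 0.70. The 10 spots of Tnf had 0.040 to 0.117, and the 2 spots of Fas had 0.0043 to 0.080.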
